A study of Rattus norvegicus with 6 samples.

Results

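Semaphorins, plexins and neuropilins are the ligands, receptors and co-receptors of 1 guidance system, and their transcripts were followed in cultured neonatal rat cardiomyocytes. Members were chosen by name, as the genes of the expression table whose symbol begins with Sema and a digit or with Plxn, or is Nrp1 or Nrp2. These were 31 of 22250 genes, namely 20 semaphorins, 9 plexins and 2 neuropilins. The heart muscle cells came from wild-type Sprague-Dawley rats 1 day old, were freed with collagenase type II and were grown in medium with foetal bovine serum. They received 3Cl-HBA at 40 µM for 48 h, or DMSO, the solvent, for the same time, with 3 libraries per treatment. 3Cl-HBA is an agonist of HCAR1, the lactate receptor named in the series title, and the labels give neither a DMSO concentration nor whether libraries came from separate cultures or pooled animals. The p-values and intervals below therefore measure only the spread between these libraries, which may be technical.

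Semaphorins share an extracellular sema domain and are either secreted, as in class 3, or held in the membrane by a transmembrane segment or, for Sema7a, a lipid anchor. They bind plexins, whose intracellular part switches off small GTPases of the Ras family and so loosens the cytoskeleton and the cell's grip on the matrix. Most class 3 semaphorins need neuropilins to reach class A plexins, and neuropilins also bind vascular endothelial growth factors. In mouse hearts this system is known for the septation of the outflow tract and for the pattern of sympathetic nerves.

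The 3Cl-HBA libraries held 14607337 to 17202191 reads assigned to genes and the DMSO libraries 13240800 to 14499065. The 31 genes took 0.213% to 0.224% of the reads in 3Cl-HBA libraries and 0.221% to 0.232% in DMSO libraries. Markers of heart muscle were high in each library, with a summed level of 18404 to 18642 CPM (read counts scaled to a common depth, on TMM-scaled totals, where TMM corrects for library composition) in 3Cl-HBA and 18136 to 19372 CPM in DMSO over 6 of 6 listed genes. The cultures also held transcripts of other heart cells. The summed levels were 11921 to 12156 CPM in 3Cl-HBA and 11812 to 12612 CPM in DMSO for 5 of 6 fibroblast markers, and 549 to 574 CPM in 3Cl-HBA and 527 to 605 CPM in DMSO for 5 of 6 endothelial markers. For 6 of 6 smooth muscle and pericyte markers they were 1725 to 1761 CPM in 3Cl-HBA and 1679 to 1845 CPM in DMSO. In such mixed cells, fewer cells of a type and less RNA per cell cannot be told apart.

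Among the receptors, 1 class B plexin and both neuropilins had the highest levels per gene length. Levels of different genes were compared as FPKM, the authors' reads scaled by gene length and library total. Plxnb2, a receptor for class 4 semaphorins, was the most abundant member of the whole system, at 80.5, 80.5 and 82.3 FPKM in 3Cl-HBA, against 86.4, 81.7 and 85.5 FPKM in DMSO. It supplied 59.8% ± 0.88 of the summed plexin FPKM (SD, n = 6 libraries) and lay above 93.7% of the 13903 tested genes. Nrp1, the co-receptor that Sema3a prefers, had 44.4, 45.4 and 47.2 FPKM in 3Cl-HBA, against 47.9, 48.2 and 45.6 FPKM in DMSO. Nrp2, preferred by Sema3f, had 31.1, 30.4 and 31.1 FPKM in 3Cl-HBA, against 32.4, 31.0 and 33.7 FPKM in DMSO. Nrp1 was 1.35 to 1.56 times as high as Nrp2 in the 6 libraries, and the ranges of these 3 receptors did not overlap.

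The class A plexins, which pair with neuropilins, were led by Plxna1. It had 19.4, 21.7 and 21.8 FPKM in 3Cl-HBA, against 22.4, 21.2 and 21.9 FPKM in DMSO, and made up 61.3% ± 1.21 of the class A sum (SD, n = 6 libraries). Plxna2 followed with 6.40, 6.49 and 5.92 FPKM in 3Cl-HBA, against 6.62, 6.52 and 6.35 FPKM in DMSO. Plxna3 had 3.14, 3.44 and 3.80 FPKM in 3Cl-HBA, against 3.60, 3.67 and 3.13 FPKM in DMSO. The treated and the DMSO libraries overlapped for each of these 3 genes. Plxna4 held a level close to that of Plxna3 over all 6 libraries and is taken up in detail below.

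The other plexins spread from moderate to barely detected. Plxnd1, a receptor of Sema3e and best known from endothelium, had 8.46, 9.79 and 8.70 FPKM in 3Cl-HBA, against 8.72, 7.33 and 10.1 FPKM in DMSO, with the lowest and the highest value both in DMSO. Plxnc1, which binds Sema7a, had 5.80, 6.88 and 5.97 FPKM in 3Cl-HBA, against 6.33, 6.06 and 6.78 FPKM in DMSO. Plxnb1, a receptor of Sema4d, had 4.80, 5.50 and 5.74 FPKM in 3Cl-HBA, against 5.43, 6.13 and 6.09 FPKM in DMSO. Groups overlapped for all 3. Plxnb3 was close to absent, with 2, 4 and 8 reads in 3Cl-HBA and 1, 2 and 0 reads in DMSO, and was the only member too low to be tested. In the order by mean, Plxnd1 stood clear above Plxna2, while Plxna2, Plxnc1 and Plxnb1 overlapped in range. Plxnb1 stood just above Plxna4, which overlapped with Plxna3.

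**Figure D1:**
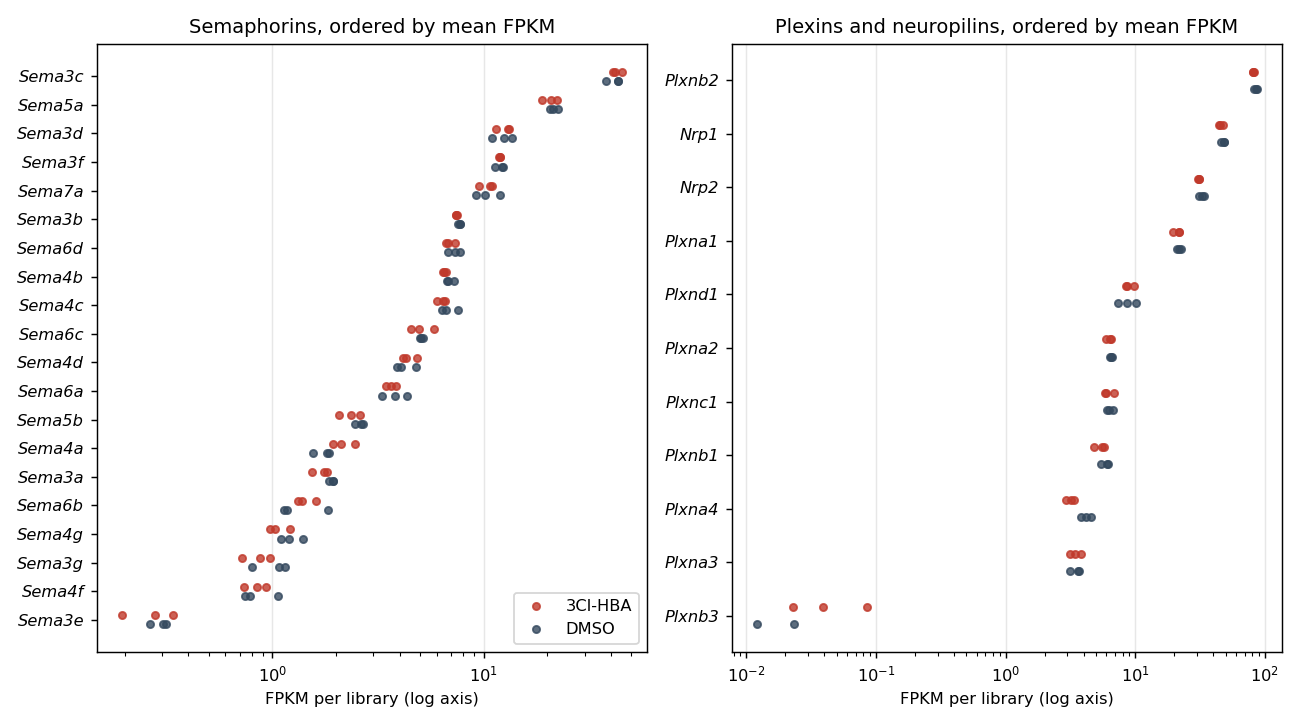
FPKM of each semaphorin (left) and each plexin and neuropilin (right) in every library, on a log axis, ordered by the mean over the 6 libraries; red points are the 3 3Cl-HBA libraries and dark points the 3 DMSO libraries. Sema3c and Plxnb2 lead their panels, Sema3e and Plxnb3 close them, and the DMSO library in which Plxnb3 had 0 reads is not drawn.

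Secreted ligands made up about as much of the semaphorin level as all the membrane-bound ones together. Class 3 members supplied 51.4% ± 1.41 of the summed semaphorin FPKM (SD, n = 6 libraries), and 4 genes, Sema3c, Sema5a, Sema3d and Sema3f, supplied 58.4% ± 1.43. Sema3c, a ligand needed for outflow tract septation in mice, led with 40.8, 45.0 and 41.7 FPKM in 3Cl-HBA, against 43.1, 43.2 and 38.0 FPKM in DMSO. Sema5a, a membrane protein with thrombospondin repeats, came second with 18.9, 20.9 and 22.1 FPKM in 3Cl-HBA, against 22.5, 20.5 and 21.3 FPKM in DMSO. Sema3c was 1.78 to 2.16 times as high as Sema5a, and the ranges of both genes stood clear of each other and of all other semaphorins.

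Below them the order was less sharp. Sema3d had 11.4, 13.2 and 13.05 FPKM in 3Cl-HBA, against 13.6, 12.5 and 10.9 FPKM in DMSO. Sema3f had 11.8, 11.9 and 11.9 FPKM in 3Cl-HBA, against 12.2, 11.3 and 12.4 FPKM in DMSO. Sema7a, the lipid-anchored member, had 9.50, 10.9 and 10.7 FPKM in 3Cl-HBA, against 9.16, 10.1 and 11.98 FPKM in DMSO. These 3 overlapped in range, and so did the groups within each gene. Sema3b, a secreted ligand, followed with 7.42, 7.36 and 7.44 FPKM in 3Cl-HBA, against 7.71, 7.58 and 7.70 FPKM in DMSO. Its 3 treated libraries lay just below the 3 DMSO libraries, by a log2 fold change of -0.05. Sema6d, Sema4b and Sema4c had means of 6.60 to 7.10 FPKM and overlapped with each other and, in part, with Sema3b.

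The remaining semaphorins were low. Of the 20, 5 had a mean of at least 10 FPKM, 12 lay from 1 to under 10 FPKM and 3 under 1 FPKM. Sema3a, the founding repellent ligand of the class, averaged 1.70 ± 0.15 FPKM in 3Cl-HBA and 1.90 ± 0.046 FPKM in DMSO (SD, n = 3 each), so the best known ligand of Nrp1 was among the lower ones here. Sema3e, a ligand of Plxnd1, was lowest, with 26, 25 and 16 reads in 3Cl-HBA and 23, 20 and 21 reads in DMSO. In single pairs of a receptor and a ligand known to bind it, which was higher differed. Such pairs do not give a balance of ligand and receptor, because each gene may have other partners. Plxnd1 averaged 8.98 ± 0.71 FPKM in 3Cl-HBA and 8.71 ± 1.37 FPKM in DMSO, far above Sema3e at 0.270 ± 0.073 FPKM in 3Cl-HBA and 0.293 ± 0.027 FPKM in DMSO. Over the 6 libraries Plxnc1 averaged 6.30 FPKM, below the 10.4 FPKM of its ligand Sema7a, and Plxnb1 averaged 5.61 FPKM beside 4.33 FPKM for Sema4d. Plxnb2, given above as a receptor for class 4 semaphorins, averaged 82.8 FPKM. RNA levels say nothing here of protein or of which cells hold ligand and receptor.

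Of the 7 class 3 genes, 4 sit together on chromosome 4 and differed widely in level. In the coordinates of the deposited table, whose genome build is not given in the sources used here, Sema3c spans 14318274 to 14490446, Sema3e 17272511 to 17594598, Sema3a 18178656 to 18396035 and Sema3d 19224310 to 19413484, all on the minus strand. Sema3c was 120 to 215 times as high as Sema3e in the 6 libraries and 20.5 to 26.6 times as high as Sema3a. Sema3d was 5.89 to 7.54 times as high as its neighbour Sema3a. Sema3b and Sema3f form a second pair, 76.35 kb apart on chromosome 8, with Sema3f 1.48 to 1.62 times as high as Sema3b. Sema3f overlaps Gnat1 on the same strand in the table, and Gnat1 had 231 reads in all 6 libraries together.

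To set these levels beside promoter sequence, the 250 bases before the RefSeq start (GRCr8, 5′ to 3′ on the gene's strand) are shown for the 3 genes of that chromosome 4 cluster that the RefSeq table lists. Capitals mark the GC box GGGCGG, the CCAAT box CCAAT and the TATA motif TATAAA, searched on both strands with overlapping matches counted. Sema3c is at chr4:18699628-18699877, Sema3d at chr4:23460972-23461221 and Sema3e at chr4:21510375-21510624, all on the minus strand.
Sema3c: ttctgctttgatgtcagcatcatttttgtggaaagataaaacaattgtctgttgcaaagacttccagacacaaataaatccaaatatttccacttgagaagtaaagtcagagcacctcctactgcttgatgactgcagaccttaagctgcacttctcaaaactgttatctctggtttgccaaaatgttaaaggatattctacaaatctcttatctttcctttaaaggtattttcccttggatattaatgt
Sema3d: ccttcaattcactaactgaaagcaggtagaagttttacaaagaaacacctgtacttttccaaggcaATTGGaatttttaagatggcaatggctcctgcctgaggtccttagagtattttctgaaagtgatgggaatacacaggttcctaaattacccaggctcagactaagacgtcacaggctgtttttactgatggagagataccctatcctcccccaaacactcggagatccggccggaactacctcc
Sema3e: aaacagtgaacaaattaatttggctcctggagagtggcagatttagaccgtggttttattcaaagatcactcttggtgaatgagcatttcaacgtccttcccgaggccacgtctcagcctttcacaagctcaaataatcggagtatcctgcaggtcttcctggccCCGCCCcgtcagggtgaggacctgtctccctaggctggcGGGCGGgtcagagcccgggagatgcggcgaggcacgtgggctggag
The window of Sema3c, the highest of the 20 ligands, holds no CG dinucleotide and none of the 3 motifs, with 35.2% G and C. That of Sema3d holds 4 CG dinucleotides and 1 CCAAT box at 44.8%, and that of Sema3e, the lowest ligand, holds 13 CG dinucleotides and 2 GC boxes at 55.6%. These 3 windows do not stand for all members. Plxnb2, the most abundant member, had 24 CG dinucleotides and 4 GC boxes at 71.6%, and Sema6b, a low ligand, had 2 CG dinucleotides at 37.2%. Of 23 members in the RefSeq table, 13 (56.5%) had a GC box in these 250 bases, 6 (26.1%) a CCAAT box and 0 a TATA motif, where the shares over all 33469 promoters were 30.5%, 34% and 12.9%. The median was 60% G and C over the 23 and 51.2% over all promoters. All promoters were not limited to genes tested here, so these sets are unlike. Members without a listed promoter include Plxna4, Plxna1, Sema5a, Sema3a and Sema3f. A match of letters is a description only, and a gene may start elsewhere in these cells.

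The comparison of 3Cl-HBA with DMSO asked whether the compound changed the transcripts of this system. No member passed the test for a change. Of the 30 tested members, 0 had an adjusted p under 0.05 in edgeR's quasi-likelihood test with Benjamini-Hochberg adjustment over all 13903 tested genes, of which 0 passed as well (0%), with 711 at an unadjusted p under 0.05 0 called by DESeq2 and 1, not a member, by limma-voom. The lowest adjusted p among members was 0.845. The family was selected on the fold change of Plxna4 in this contrast, which was already known, so the fold changes below are descriptions and support nothing.

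Plxna4, a class A plexin that transmits Sema3a signals with Nrp1 and also binds Sema6a in neurons (ENSRNOG00000013072, chromosome 4, 59445767 to 59809321 in the table's coordinates, minus strand), was lower after 3Cl-HBA. It had 241, 315 and 299 reads in 3Cl-HBA, against 363, 341 and 289 reads in DMSO. Scaled to depth these were 16.4, 18.4 and 19.0 CPM in 3Cl-HBA, against 26.0, 23.5 and 21.9 CPM in DMSO. The lowest DMSO library lay above the highest treated one, and DMSO replicate 1 held the highest value. The log2 fold change was -0.40 (SE 0.10, 95% interval -0.61 to -0.20), a fold of 0.756, and its edgeR adjusted p of 0.845 did not pass. The interval does not account for the choice of this gene among many.

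The other plexins did not show a difference of that size. Log2 fold changes of the 7 other tested plexins ran from -0.13 for Plxnb1 to 0.05 for Plxnd1. Their median was -0.05, against -0.000511 for all tested genes. The groups stood apart for 0 of the 7, beside 10.5% of all tested genes, and with 7 genes nothing is read from that count. For the class A relatives the log2 fold changes were -0.05 for Plxna1 (SE 0.052, 95% interval -0.16 to 0.052), -0.05 for Plxna2 (SE 0.063, -0.18 to 0.079) and 0.0004 for Plxna3 (SE 0.095, -0.19 to 0.19). The difference between Plxna4 and its relatives was not tested. The estimate of -0.40 for Plxna4 comes from the contrast on which the family was selected, so the intervals of the relatives cannot be judged against it.

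The proportions within class A show the same values from another side. Plxna4 made up 9.12%, 9.25% and 9.58% of the class A plexin FPKM in 3Cl-HBA, against 12.3%, 11.7% and 10.9% in DMSO. Its FPKM were 92.5%, 93.7% and 88.0% of those of Plxna3 in 3Cl-HBA, against 127%, 113% and 123% in DMSO. By FPKM the order of both genes was therefore opposite in the 2 groups. By CPM, which do not divide by gene length, Plxna3 was above Plxna4 in each library. Class A plexins as a whole supplied 25.0% ± 0.64 of plexin FPKM in 3Cl-HBA and 25.4% ± 0.81 in DMSO (SD, n = 3 each). Class A plexins resemble each other in sequence, and how the authors assigned reads that match several genes is not given in the sources used here.

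**Figure D2:**
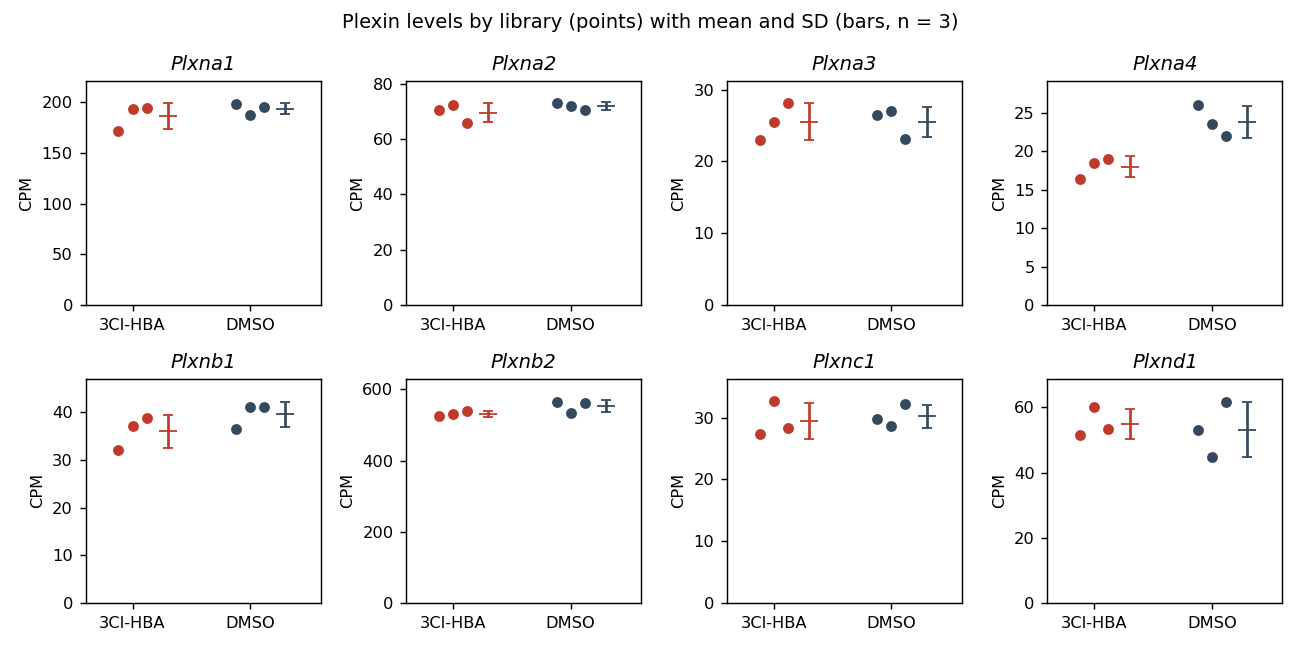
CPM of the 8 tested plexins in each library, with the 3Cl-HBA libraries to the left of the DMSO libraries, points for libraries and bars for the mean and SD (n = 3), on axes that start at 0. Of these 8 plexins, only for Plxna4 do the points of the groups stand apart, at 16.4 to 19.0 CPM in 3Cl-HBA and 21.9 to 26.0 CPM in DMSO. That is 12.5% of the 8, beside 10.5% of all tested genes, and the family was selected on the fold change of Plxna4.

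Nerve and glial markers, of cells in which Plxna4 is also known, had a lower summed CPM than each of the other marker lists. The 7 Schwann cell and neuron markers summed to 39.0 to 43.4 CPM in 3Cl-HBA and 36.7 to 41.1 CPM in DMSO. Of the 4 that were tested, 3 had a log2 fold change above 0 and 1 below, and 0 passed. They ran from -0.53 to 0.31, with SEs of 0.096 to 0.49. For the 1 below 0 all treated libraries lay under all DMSO libraries. That is 25% of the 4, beside 10.5% of all tested genes with groups apart in either direction, and nothing is read from it. The summed ranges of the 7 overlapped between the groups, and the part of these markers in the level of Plxna4 was not tested.

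The neuropilins differed little between treatments. The log2 fold change was -0.05 for Nrp1 (SE 0.048, 95% interval -0.14 to 0.050) and -0.07 for Nrp2 (SE 0.050, -0.17 to 0.034). Groups overlapped for both. The most abundant plexin, Plxnb2, had 525, 530 and 539 CPM in 3Cl-HBA, against 564, 533 and 562 CPM in DMSO, or -0.06 on the log2 scale (SE 0.044, 95% interval -0.15 to 0.031). These 3 genes, with the smallest SEs among the members, had intervals that included 0.

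Among the ligands, Sema4a stood at the opposite end from Plxna4. Sema4a, a membrane ligand known from immune cells and the retina, had 160, 163 and 136 reads in 3Cl-HBA, against 116, 101 and 107 reads in DMSO. This was 10.9, 9.53 and 8.66 CPM in 3Cl-HBA, against 8.30, 6.95 and 8.11 CPM in DMSO. Its lowest treated library lay just above its highest DMSO library, 0.32 higher on the log2 scale (SE 0.15, 95% interval 0.013 to 0.62) and an edgeR adjusted p of 0.959. The 6 macrophage markers summed to 331 to 342 CPM in 3Cl-HBA and 306 to 334 CPM in DMSO, with 6 of 6 log2 fold changes above 0 and 0 passing the test, and their part in the level of Sema4a was not tested.

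The next largest changes were in weakly expressed ligands and were not resolved. Sema3g, a secreted ligand known from arterial endothelium, had 54, 57 and 43 reads in 3Cl-HBA, against 61, 44 and 54 reads in DMSO, which is -0.24 on the log2 scale (SE 0.23, 95% interval -0.70 to 0.23). Sema4g, a membrane ligand, had 65, 90 and 66 reads in 3Cl-HBA, against 84, 75 and 63 reads in DMSO, which is -0.20 on the log2 scale (SE 0.19, -0.58 to 0.19). Groups overlapped for both genes. The abundant Sema3c and Sema5a were far better bounded, at 0.04 (SE 0.053, -0.067 to 0.15) and -0.05 (SE 0.054, -0.16 to 0.058).

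Over the 30 tested members, 22 had a log2 fold change below 0 and 8 above, with a median of -0.05. The median was -0.05 for the 20 semaphorins and -0.05 for the 10 tested receptors, against -0.000511 for all tested genes, whose counts were 6981 below 0 and 6922 above. The groups did not overlap for 5 members (16.7%), Plxna4, Sema3a, Sema3b and Sema4b with all treated libraries lower and Sema4a with all higher, where this held for 10.5% of all tested genes, 5.22% in the lower and 5.24% in the higher direction. Nothing is read from these counts, because the contrast was known when the family was chosen. The 95% interval lay inside a 2-fold change for 30 of 30 members and inside a 1.5-fold change for 26, the exceptions being Plxna4, Sema4a, Sema3g and Sema3e. Without DMSO replicate 2 the median of the members became -0.08.

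**Figure D3:**
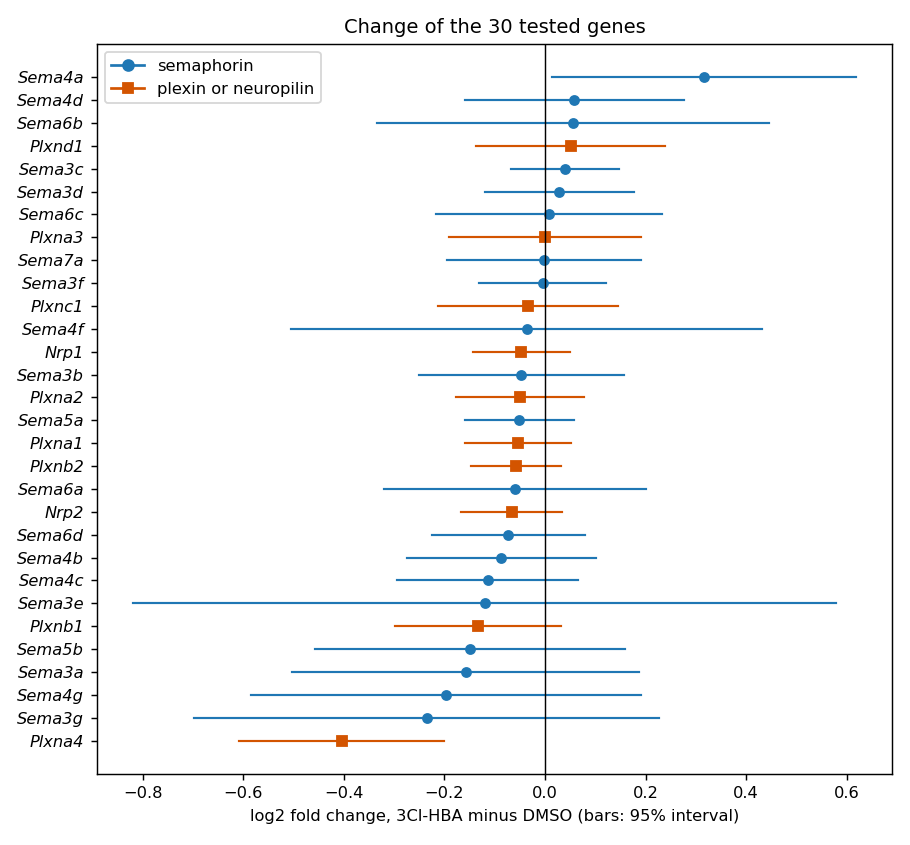
Log2 fold changes, 3Cl-HBA minus DMSO, of the 30 tested members with 95% intervals, ordered from the highest (Sema4a, 0.32) to the lowest (Plxna4, -0.40); blue circles are semaphorins and orange squares plexins or neuropilins. Intervals widen for the weakly expressed ligands, up to an SE of 0.35 for Sema3e.

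Gene length was looked at because long genes tended to be slightly lower in the treated libraries of this series. Length here is the value in the deposited table, not the span on the chromosome. For Plxna4 the span is 363.6 kb, and change was not compared with span. Across the 13903 tested genes the Spearman correlation of length with log2 fold change was -0.115, and across the 30 tested members it was 0.0073. Genes are not independent replicates, all points come from the same 6 libraries, and no p is given. The members are long, with a median of 4840 bases against 2416 for all tested genes. Plxna4, at 5682 bases in the table, is longer than 91.8% of tested genes, and the 911 tested genes of 5000 to under 6500 bases had a median log2 fold change of -0.02. With each library's length trend removed, Plxna4 stood at -0.38 and the median of the members at -0.03. The 2 members longest by the table's value moved to slightly above 0 in that setting, Plxna2 (11066 bases) to 0.02 and Sema5a (10519 bases) to 0.01, as did Sema3f.

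**Figure D4:**
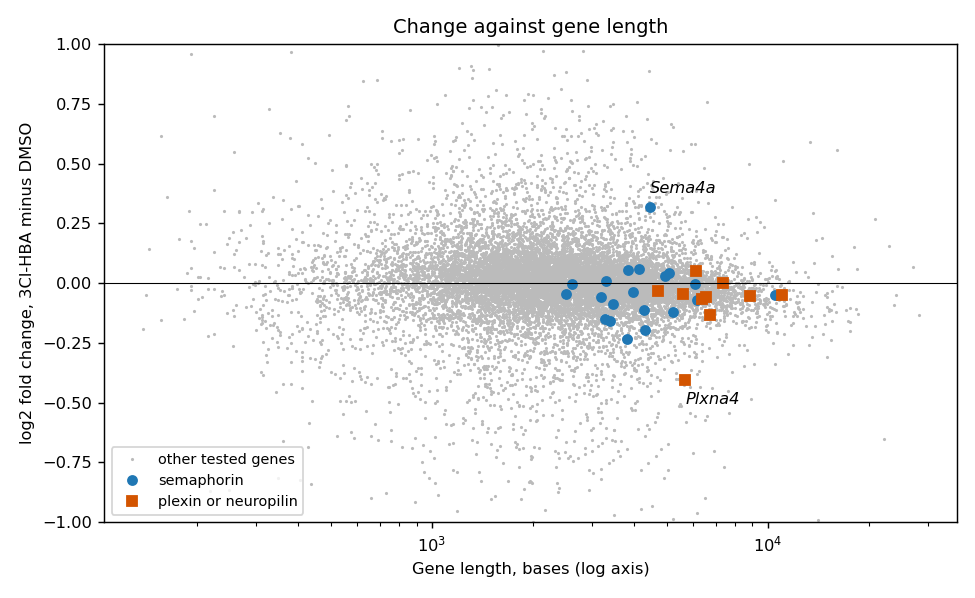
Log2 fold change, 3Cl-HBA minus DMSO, against gene length in bases (log axis) for all tested genes (grey), semaphorins (blue circles) and plexins or neuropilins (orange squares). Length is the value in the deposited table, not the span on the chromosome, and 48 genes lie outside the plotted range of -1 to 1. Plxna4 (5682 bases, -0.40) lies below other members of similar length, and the longest members lie near 0.

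By edgeR's estimate, the spread between libraries was smallest for abundant receptors. The plain SD could be small elsewhere too. Sema3b, with means of 18.6 CPM in 3Cl-HBA and 19.2 CPM in DMSO, had SDs of 0.094 and 0.21 CPM. An SD of 3 values is poorly determined, so these do not show a small spread for this gene. The biological coefficient of variation is edgeR's estimate of the spread between libraries beyond counting noise. It was 0.044 for Plxnb2, Nrp1 and Nrp2, 0.065 for Sema3b and 0.168 for Sema3e, with a median of 0.065 over the members and 0.065 over all tested genes. Sema6b, a membrane ligand, showed 1 high library within a group, with 98 reads in DMSO replicate 1 against 63 and 60 in DMSO replicates 2 and 3, beside 90, 91 and 80 reads in 3Cl-HBA. Its log2 fold change of 0.06 became 0.31 without that library.

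The partners of the receptors and the proteins that carry their signal gave no calls either, where 0 of all 13903 tested genes passed. Over all tested genes 6981 log2 fold changes lay below 0 and 6922 above, and nothing is read from the counts of these lists. Of 21 listed co-receptors and binding partners 19 were tested, and 0 passed in either direction, with 8 log2 fold changes above 0 and 11 below. The most abundant were the integrin subunit Itgb1, a partner of Sema7a, at 772 ± 11.7 FPKM in 3Cl-HBA and 769 ± 34 FPKM in DMSO, the proteoglycan Gpc1 at 79.4 ± 1 FPKM in 3Cl-HBA and 80.9 ± 0.54 FPKM in DMSO, and the pseudokinase Ptk7 at 58.3 ± 1.58 FPKM in 3Cl-HBA and 60.4 ± 3.23 FPKM in DMSO (SD, n = 3 each). Of 36 listed signalling proteins 35 were tested and 0 passed, with 16 above 0 and 19 below and a median of -0.01. Their most abundant members were the actin-severing protein Cfl1, with a log2 fold change of 0.03, and the GTPases Rhoa (0.04) and Rap1b (0.08). The 8 genes of the vascular endothelial growth factor system, which shares the neuropilins, split into 4 above 0 and 4 below, with 0 called. Vegfa, the main ligand, had 166 ± 6.5 FPKM in 3Cl-HBA and 166 ± 3.13 FPKM in DMSO (SD, n = 3 each), and the growth factor genes Pgf and Vegfb had log2 fold changes of 0.05 and 0.20.

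Other guidance families had no calls in this contrast either, where 0 of all 13903 tested genes passed. For netrins, slits and their receptors, 13 of 20 listed genes were tested, 0 passed, 10 lay below 0 and the median log2 fold change was -0.07. Their most abundant members were the netrin receptors Unc5b and Neo1, at -0.04 and -0.07, and the ligand Slit2 at -0.02. For ephrins and Eph receptors, 19 of 22 listed genes were tested, 0 passed, 13 lay below 0 and the median was -0.02. Efna5, Ephb4 and Efnb1 led them by level, with log2 fold changes of -0.04, -0.02 and -0.01. Over all tested genes 6981 log2 fold changes lay below 0 and 6922 above, and nothing is read from the counts of these families. Differences between these families and the semaphorin system were not tested.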

How the data were processed

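RNA from 6 libraries of neonatal rat cardiomyocytes was depleted of ribosomal RNA with a KAPA RiboErase kit and read by Illumina sequencing; per the labels' protocols, the authors used DESeq2. Not given in the sources used here are the aligner, counting program, strand setting, genome build and annotation. The deposited table gives whole-number read counts per gene, not normalised, and the authors' FPKM, which match counts divided by the table's gene length and the library total, to a relative gap of 8.2e-08. Columns were assigned to samples through the treatment protocol and titles.

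The fit used edgeR 4.0.16 under R 4.3.3 (TMM, filterByExpr with a minimum count of 10, robust glmQLFit and glmQLFTest, no block), which kept 13903 of 22250 genes. The call threshold was 0.05 after Benjamini-Hochberg adjustment over all tested genes. SEs are the unshrunk log2 fold change divided by the square root of F. CPM use TMM-scaled totals. DESeq2 1.42.0, limma-voom (limma 3.58.1), other scalings, no filter, a replicate block, a length correction (lowess, span 0.3) and leaving out each library were alternatives. FPKM were not tested. The procedure was also run on simulated counts, with changes larger than those estimated for the members. That run does not bear on changes of the members' size. The members, gene lists and tests were chosen with earlier results of these data known. Values in every library are given for the plexins, neuropilins, the 6 highest semaphorins and the 3 with the largest absolute fold change, and of each pathway list the 3 highest tested genes are named; Sema3a, Sema3e and Sema6b were added after their values were seen. Col1a2, Pecam1 and Epha6 were not analysed here. Levels of some single marker genes are not reported here.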

Additional observations from a re-analysis of the deposited data

How the results depend on the processing

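The count of called members was 0 in each of the 13 alternatives, and the log2 fold change of Plxna4 kept its sign in all of them, from -0.46 without DMSO replicate 3 to -0.34 without DMSO replicate 1, with adjusted p of 0.117 to 1 over edgeR, DESeq2 and limma-voom. The groups did not overlap for Plxna4, on whose fold change the family was selected, so leaving out a library could hardly change its sign. The alternatives reuse the same 6 libraries and are not independent of each other. Of the 30 tested members, 14 kept their sign in all 13, 13 of them lower and 1, Sema4a, higher. The share over all tested genes is not given. Nothing is read from this count, because the contrast was known when the family was chosen. The count of called genes over the whole table was 0 and became 2 with no filter on low counts (Kmt2a and Myh9l1), 1 with limma-voom (Vwa5a) and 0 to 8 when single libraries were left out (8 without DMSO replicate 3, 3 and 2 without 3Cl-HBA replicates 3 and 2, 1 without DMSO replicate 2); none was a member. These 3 genes are named because of their values, and the cause was not tested. The members' median ran from -0.08 to -0.04 when single libraries were left out, that of the semaphorins from -0.10 without DMSO replicate 2 to -0.02 without DMSO replicate 1, and that of the receptors from -0.08 to -0.04. By CPM, which do not divide by gene length, the order of levels had a Spearman correlation of 0.944 with that by FPKM, and Sema5a came before Sema3c; without single libraries it was 0.999 to 1. The replicate numbers did not pair the libraries: correlations of same-numbered deviations were -0.069, -0.044 and -0.045, and 0 of 6 libraries correlated best with their own number. With the replicate block 0 genes and 0 members were called and the members' median was -0.05. At 16 to 26 reads per library, the interval of Sema3e, -0.82 to 0.58, was too wide to exclude a 1.5-fold change in the downward direction.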
